A study of Oryza sativa with 4 samples.

Results

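The regions described are the end segments of rice (Oryza sativa) chromosomes 11 and 12, from the start of each chromosome to 6 Mb. They were chosen by position alone: each listed ATAC-seq peak on either chromosome that ends at or before position 6000000. This gave 1327 of the 46114 listed peaks, with 655 peaks at 414 genes on chromosome 11 and 672 peaks at 409 genes on chromosome 12. ATAC-seq marks open chromatin by letting the Tn5 transposase cut and tag accessible DNA. There were 2 wild type (WT) and 2 Oshmgb1 mutant libraries, all from seedling leaf blades after 28 days of growth in HP, a condition that the labels do not spell out, with no library from another condition. The mutated gene encodes a chromatin protein with a high mobility group box, a DNA-binding fold that bends the helix. The labels give neither the kind of mutation nor the number of lines, and nothing in them says that the 2 libraries of a genotype came from separate plants.

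The ends of chromosomes 11 and 12 are known as a pair of duplicated blocks that hold many of the same genes in the same order. In the grasses these blocks have stayed more alike than most ancient duplicates, which has been attributed to gene conversion, the copying of sequence from one copy into the other. A known pair of this region is DMC1B on chromosome 11 and DMC1A on chromosome 12, which encode a recombinase of meiosis. Where the copies are alike, a short read can align to either of them, and the sources used here do not say how such reads were treated. Levels at the copies therefore hold only as far as reads were placed on the right copy. No sequence of these regions was used here.

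The libraries had between 7228483 and 10400677 reads in all listed peaks. In the segments, WT had 171531 (replicate 1) and 197639 (replicate 2) of these reads and Oshmgb1 had 253171 and 208132, which is 2.37% to 2.44% of each library. All 5 leaf marker genes examined had listed peaks, with 43.0 to 90.2 CPM per kb of peak (CPM, reads scaled to the depth of the library) at the most accessible peak of each. The root silicon transporter genes LSI1 and LSI2 had 22.3 and 15.4 and the meristem gene OSH1 had 18.3 CPM per kb. Each was below the median of 25.6 CPM per kb over all listed peaks. In leaf blades, fewer nuclei with an open site and a less open site in every nucleus cannot be told apart.

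Peaks were sparse in the outermost part of both chromosomes. The first 2 Mb held 145 peaks on chromosome 11 and 175 on chromosome 12, the lowest numbers among the 12 chromosomes, where the other 10 had 183 to 334 with a median of 279. Over the first 6 Mb the numbers, 655 and 672, ranked 9 and 8 from the highest of the 12 chromosomes, and those of the other 10 ranged from 488 to 985. Within the segments, each 500 kb window of the first 2 Mb held 25 to 48 peaks, and each later window held 53 to 82. The step lay at the same window on both chromosomes. The deposited table lists 80.3% of its peak numbers on the chromosome 11 segment and 82.1% on the chromosome 12 segment, beside 80.3% over the whole table, and peaks that are not listed were not analysed here.

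The peaks themselves resembled those of the genome. Their median width was 554 bp on chromosome 11 and 575.5 bp on chromosome 12, beside 560 bp over all listed peaks. Their median level was 24.3 and 23.5 CPM per kb, a little under the 25.6 of all peaks. The authors' annotation placed 37.4% of the chromosome 11 peaks and 33.8% of the chromosome 12 peaks in promoters, beside 35.1% over all listed peaks.

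The most accessible site of the segments was a peak of 322 bp that the authors' annotation places downstream of LOC_Os12g08850, described as a probable cysteine desulfurase. It had 225.7 and 209.9 CPM per kb in WT and 183.2 and 207.5 in Oshmgb1. The promoter peak of PSAN, which encodes a subunit of photosystem I, followed on chromosome 12 with 123.8 and 97.9 CPM per kb in WT and 91.8 and 112.1 in Oshmgb1. On chromosome 11 the highest level was at the promoter of VIP1, a bZIP transcription factor gene, followed by an intron peak of LOC_Os11g06030 with a mean of 95.5 CPM per kb. The next was the promoter of ALDP, which encodes the chloroplast aldolase of the Calvin cycle. VIP1 had 105.0 and 122.3 CPM per kb in WT and 101.8 and 105.9 in Oshmgb1. ALDP had 92.1 and 94.7 in WT and 85.8 and 100.03 in Oshmgb1. The genotypes overlapped at PSAN, VIP1 and ALDP. At the LOC_Os12g08850 peak both Oshmgb1 values were below both WT values, but none of these 4 peaks passed the test of genotype. The other peaks among the 5 highest of each segment lay at MAPKKK3 and BLH1 on chromosome 11 and at fam135b, LOC_Os12g07210 and STY46 on chromosome 12, with means of 81.6 to 86.4 CPM per kb.

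Genotype was compared with edgeR's quasi-likelihood test on the read counts of all 46114 peaks, and a peak was called at a Benjamini-Hochberg adjusted p under 0.05. In the segments, 9 peaks at 8 genes were called, all of them higher in Oshmgb1, with 1 on chromosome 11 and 8 on chromosome 12. This is 0.678% of the 1327 peaks, beside 0.403% of all listed peaks, of which 148 (0.321%) were called higher and 38 (0.0824%) lower. Log2 fold changes of the 9 peaks lay between 0.98 and 1.11, near a doubling, and at each of them both Oshmgb1 libraries were above both WT libraries. Scaling by the library totals behind the deposited RPKM gave 8 peaks called higher and 4 called lower in place of 9 and 0. Leaving out WT replicate 2 gave 25 called peaks (22 higher and 3 lower), and leaving out Oshmgb1 replicate 2 gave 5.

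**Figure D1:**
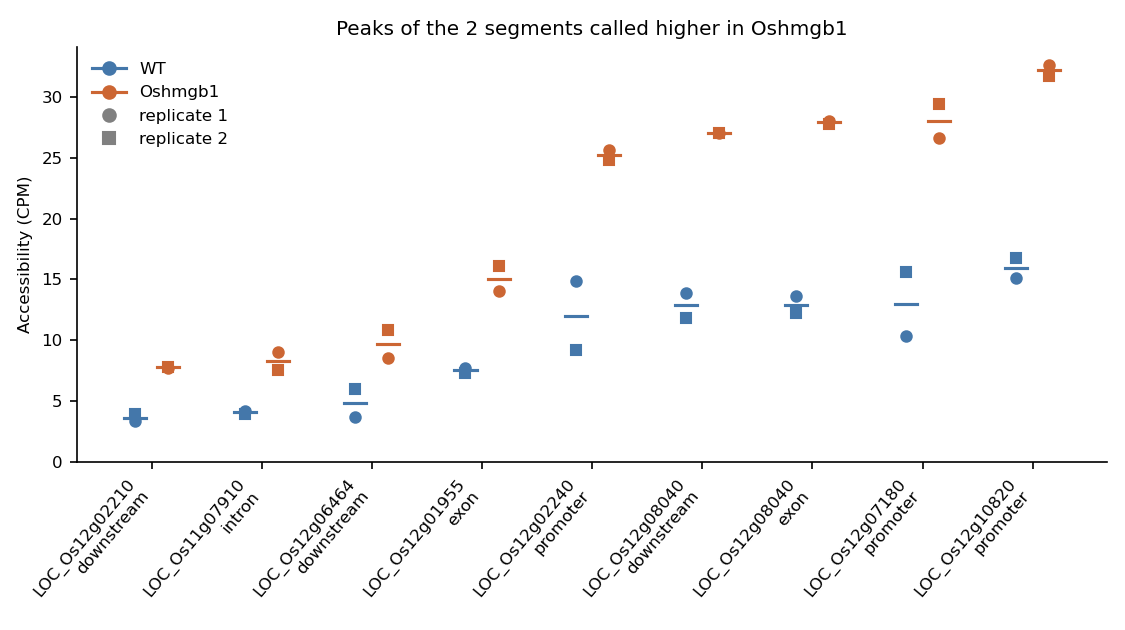
Accessibility in CPM (y axis) of the 9 called peaks of the segments, ordered by their WT mean and named by gene and annotation class. Circles are replicate 1, squares replicate 2 and short lines the mean of the 2 libraries of a genotype. At each of these peaks both Oshmgb1 libraries lie above both WT libraries; WT values span 3.37 to 16.7 CPM and Oshmgb1 values 7.58 to 32.6 CPM.

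The called peak of lowest p lay in a retroelement-like gene, LOC_Os12g08040, whose symbol TY3B-I is that of a yeast Ty3 polyprotein. Its exon peak, at 4089332 to 4090267 of chromosome 12 in the coordinates of the deposited table (the sources used here do not name its genome build), had 13.6 and 12.2 CPM in WT. In Oshmgb1 it had 28.1 and 27.8 CPM, a log2 fold change of 1.11 ± 0.18 (SE; edgeR adjusted p = 1.96e-05). A neighbouring peak 287 bp away, at 4088075 to 4089044 and annotated as downstream of the same gene, had 13.9 and 11.9 CPM in WT and 27.0 and 27.1 in Oshmgb1 (log2 fold change 1.07 ± 0.18; edgeR adjusted p = 6.07e-05). The replicates of each genotype lay closer together at both sites than the genotypes did. Retroelements exist in many similar copies, so reads at this gene may also come from other loci, which was not tested.

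Of the 9 called peaks, 3 were annotated to promoters. The peak at 5820298 to 5821520 in the promoter of LOC_Os12g10820, a gene described only as an expressed protein, had 15.2 and 16.7 CPM in WT and 32.6 and 31.7 in Oshmgb1 (log2 fold change 1.01 ± 0.17; edgeR adjusted p = 3.04e-05). The peak at 3528125 to 3528724 in the promoter of LOC_Os12g07180, described after an animal formin-type protein (disheveled-associated activator of morphogenesis), had 10.4 and 15.6 CPM in WT and 26.6 and 29.4 in Oshmgb1. Its log2 fold change was 1.09 ± 0.18 (edgeR adjusted p = 4.79e-05). The peak at 695529 to 696319 in the promoter of LOC_Os12g02240, which has no description, had 14.9 and 9.16 CPM in WT and 25.7 and 24.8 in Oshmgb1 (log2 fold change 1.08 ± 0.19; edgeR adjusted p = 1.48e-04). At LOC_Os12g02240 the WT libraries differed more from each other than the Oshmgb1 libraries did, but the genotypes did not overlap.

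The remaining 4 called peaks were less accessible, and each was lost in at least 3 of the 11 settings tried, DESeq2 and the FDR of the authors' deposited table among them. ATL32 (LOC_Os12g02210) encodes a RING-type zinc finger protein of a family of ubiquitin ligases, and its downstream peak at 688687 to 689018 lay 6510 bp from the called promoter peak of LOC_Os12g02240. It had 3.37 and 3.91 CPM in WT and 7.73 and 7.81 in Oshmgb1 (log2 fold change 1.09 ± 0.26; edgeR adjusted p = 0.0226). The exon peak of LOC_Os12g01955 at 566209 to 566959 had 7.72 and 7.33 CPM in WT and 14.0 and 16.1 in Oshmgb1 (log2 fold change 0.998 ± 0.223; edgeR adjusted p = 0.0112). The peak downstream of LOC_Os12g06464 at 3099250 to 3099654 had 3.65 and 5.99 CPM in WT and 8.50 and 10.8 in Oshmgb1 (log2 fold change 0.98 ± 0.25; edgeR adjusted p = 0.0455). The chromosome 11 call was an intron peak of TMN1 (LOC_Os11g07910), a transmembrane 9 superfamily gene, at 4077817 to 4078139, with 4.21 and 3.91 CPM in WT and 9.07 and 7.58 in Oshmgb1 (log2 fold change 1.04 ± 0.25; edgeR adjusted p = 0.0284). The other 5 called peaks, at LOC_Os12g02240, LOC_Os12g07180, LOC_Os12g08040 and LOC_Os12g10820, were called in all 11 settings.

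Most neighbours of the called peaks were not called. Of 18 flanking positions, 4 held called peaks, beside 0.403% of all listed peaks called. They were the adjacent called peaks of ATL32 and LOC_Os12g02240 and those of LOC_Os12g08040, each counted from its neighbour. Each adjacency was thus counted from both sides, within the called peaks themselves, and whether called peaks lie together was not tested. Apart from LOC_Os12g08040, no gene had more than 1 called peak. A further promoter peak of LOC_Os12g07180, 324 bp from the called one, had 9.12 and 8.55 CPM in WT and 9.26 and 10.3 in Oshmgb1 (log2 fold change 0.14; edgeR adjusted p = 0.850). At LOC_Os12g06464 the log2 fold change was 0.08 at the promoter peak and -0.25 at an exon peak, neither of them called. Among 14 peaks that flank the called ones and were not themselves called, log2 fold changes ranged from -0.25 to 0.88 with a median of 0.17, and 11 were positive. Of these 14, 4 had an unadjusted p under 0.05, all higher in Oshmgb1, at 0.41, 0.62, 0.88 and 0.59. Over all listed peaks, 6.94% were higher at that unadjusted p. The value of 0.88 belonged to the peak before LOC_Os12g10820, at MAIL3 (edgeR adjusted p = 0.108), and the peak after it had 0.59 (edgeR adjusted p = 0.231).

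**Figure D2:**
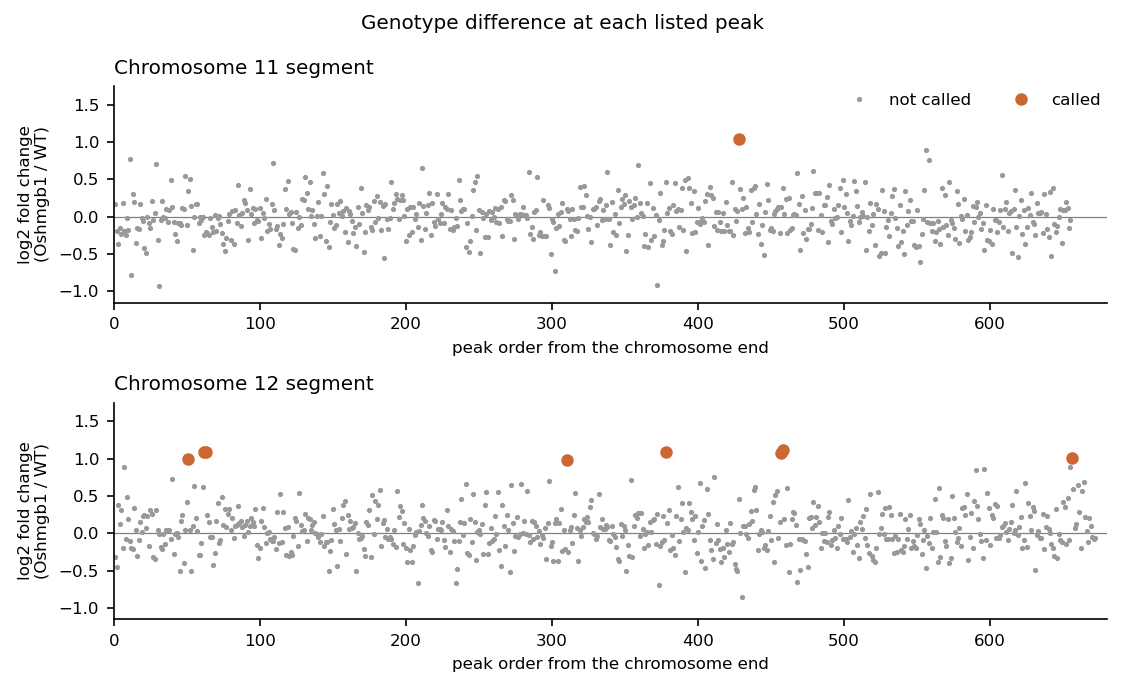
Log2 fold change of Oshmgb1 over WT (y axis) for each listed peak of the chromosome 11 segment (top, 655 peaks) and the chromosome 12 segment (bottom, 672 peaks), in order from the chromosome end (x axis). Orange points are peaks called at an edgeR adjusted p under 0.05; the 9 called peaks all lie above 0, 1 on chromosome 11 and 8 on chromosome 12.

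With the called peaks included, more chromosome 12 peaks leaned towards Oshmgb1 than towards WT. At an unadjusted p under 0.05, 68 peaks of the chromosome 12 segment were higher and 32 lower, together 14.9% of its peaks beside 12.2% of all listed peaks (6.94% higher and 5.22% lower). On chromosome 11 there were 37 higher and 32 lower, or 10.5%. Both Oshmgb1 libraries lay above both WT libraries at 25.7% of the chromosome 12 peaks and 19.2% of the chromosome 11 peaks, beside 21.6% of all listed peaks. They lay below at 17.9% and 21.4%, beside 21.6% of all. The median log2 fold change was 0.03 on chromosome 12 and -0.00 on chromosome 11, beside -0.01 over all listed peaks. The rest of chromosome 12, beyond the segment, had 28.7% above and 18.7% below, with 13 of 2129 peaks called (0.611%). The rest of chromosome 11 had 23.4% above and 19.4% below, with 14 of 2216 peaks called (0.632%). The lean was thus not confined to the segment, and a smaller one lay on chromosome 11 beyond its segment. With the library totals behind the RPKM, the median over all listed peaks was -0.05 in place of -0.01. The first 6 Mb of the other chromosomes had between 0 and 5 peaks called higher.

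Most peaks of the segments did not differ by as much as 2-fold. The 95% interval of the log2 fold change excluded a 2-fold difference in either direction at 632 of 655 peaks on chromosome 11 and at 625 of 672 on chromosome 12. These shares, 96.5% and 93.0%, lay near the 95.2% of all listed peaks. No peak of the segments was called lower. The lowest peaks by p were an exon peak of EIF2S3 (LOC_Os12g07740), a subunit of translation initiation factor eIF2, and an exon peak of LOC_Os11g01660. EIF2S3 had 12.3 and 14.8 CPM in WT and 7.83 and 7.11 in Oshmgb1 (log2 fold change -0.86 ± 0.22; edgeR adjusted p = 0.0504). LOC_Os11g01660 had 8.28 and 8.68 CPM in WT and 4.58 and 4.31 in Oshmgb1 (log2 fold change -0.93 ± 0.25; edgeR adjusted p = 0.0554). An intron peak of LOC_Os11g07200, a receptor kinase gene that bears the symbol XA21, had 9.40 and 8.43 CPM in WT and 4.87 and 4.55 in Oshmgb1 (log2 fold change -0.91 ± 0.24; edgeR adjusted p = 0.0584). At these 3 peaks both Oshmgb1 libraries were below both WT libraries, with an adjusted p just above the threshold. On the higher side the nearest to the threshold on chromosome 11 was the promoter peak of LOC_Os11g09760, with 5.61 and 7.21 CPM in WT and 11.3 and 12.7 in Oshmgb1 (log2 fold change 0.89 ± 0.23; edgeR adjusted p = 0.0542).

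Weaker differences that were not called lay at genes of several kinds. The peak downstream of PCF3, a TCP-type transcription factor gene, had 47.1 and 52.8 CPM in WT and 65.2 and 64.8 in Oshmgb1 (log2 fold change 0.38 ± 0.11; edgeR adjusted p = 0.111). CPK24, a calcium-dependent protein kinase gene, had a log2 fold change of 0.70 ± 0.22 at its 5 prime UTR peak (edgeR adjusted p = 0.132), and LOC_Os11g09800 had 0.76 ± 0.23 at its promoter (edgeR adjusted p = 0.103). On chromosome 11, promoter values below 0 were found for ALDH3H1, an aldehyde dehydrogenase gene, at -0.44 ± 0.13 and for ACT7, an actin gene, at -0.73 ± 0.23. ESK1, a trichome birefringence-like gene of cell wall acetylation, had -0.79 ± 0.24 at its 5 prime UTR peak. On chromosome 12 a promoter peak of VATP-P1, a subunit of the vacuolar proton pump, had -0.70 ± 0.21. There too, an intron peak of IQM3 had -0.66 ± 0.22, the promoter of the receptor kinase gene PXC3 had -0.66 ± 0.22 and the peak downstream of DTX42, a MATE-type transporter gene, had -0.52 ± 0.18. The edgeR adjusted p of these last 7 values below 0 ranged from 0.0904 to 0.188.

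Each list of gene families described in the region had 0 or 1 called peak, beside 0.403% of all listed peaks called. Families were collected by words in the deposited descriptions. Disease resistance genes of the NLR family, the intracellular immune receptors of plants, had 28 peaks at 15 genes, none called, with 5 higher and 0 lower at an unadjusted p under 0.05 (17.9%) and a median log2 fold change of 0.00. Receptor kinases had 37 peaks, none called, with 5 higher and 5 lower (27.0%) and a median of -0.05. Other words for protein kinases took in 52 peaks, some of them shared with the receptor kinases, none called, with 5 higher and 6 lower (21.2%) and a median of 0.00. The transcription factor words took in 38 peaks at 22 genes, with 1 called, 6 higher and 0 lower (15.8%) and a median of 0.08. The called one was ATL32, which was collected by the words zinc finger and belongs to a family of ubiquitin ligases. Ubiquitin and proteasome genes had 48 peaks, none called, with 2 higher and 3 lower (10.4%) and a median of 0.05. Transporters had 17 peaks, none called, with 2 higher and 2 lower (23.5%) and a median of -0.14. Genes without known function had 215 peaks, 1 called, with 20 higher and 6 lower (12.1%) and a median of 0.01. Ribosomal proteins (10 peaks), transposon-related genes (9), cytochrome P450 genes (4), peroxidases (4), lipid transfer proteins (2) and the DMC1 pair (2) had no called peak and 0 or 1 peak each at an unadjusted p under 0.05. The transposon words did not take in LOC_Os12g08040, whose description names no element, so its 2 called peaks stand outside that count. Over all listed peaks the median was -0.01 and 12.2% passed that unadjusted p. With 0.403% of all listed peaks called, lists of these sizes without a call are not a result about the families.

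Reads summed over 500 kb windows were then compared between genotypes, with the edgeR fit run on all 755 windows of the genome. Of the 24 windows of the segments 1 was called, beside 15 of 755 (1.99%) in the genome. It was window 2 of chromosome 12, from 500 to 1000 kb, which holds the called peaks of LOC_Os12g01955, ATL32 and LOC_Os12g02240 among its 44 peaks. It had 665.5 and 653.0 CPM in WT and 723.0 and 725.2 in Oshmgb1, a log2 fold change of 0.14 (95% interval 0.06 to 0.21; edgeR adjusted p = 0.0483). The call was lost when WT replicate 2 (edgeR adjusted p = 0.0520) or either Oshmgb1 library (0.387 and 0.711) was left out, with the replicate number as a block (0.316), with the RPKM library totals (0.0823) and with 1 Mb windows. Window 12 of chromosome 12, which holds the LOC_Os12g10820 peak, had a log2 fold change of 0.10 (95% interval 0.04 to 0.17; edgeR adjusted p = 0.0979). The 12 windows of chromosome 11 lay between -0.06 and 0.06, and none was called.

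**Figure D3:**
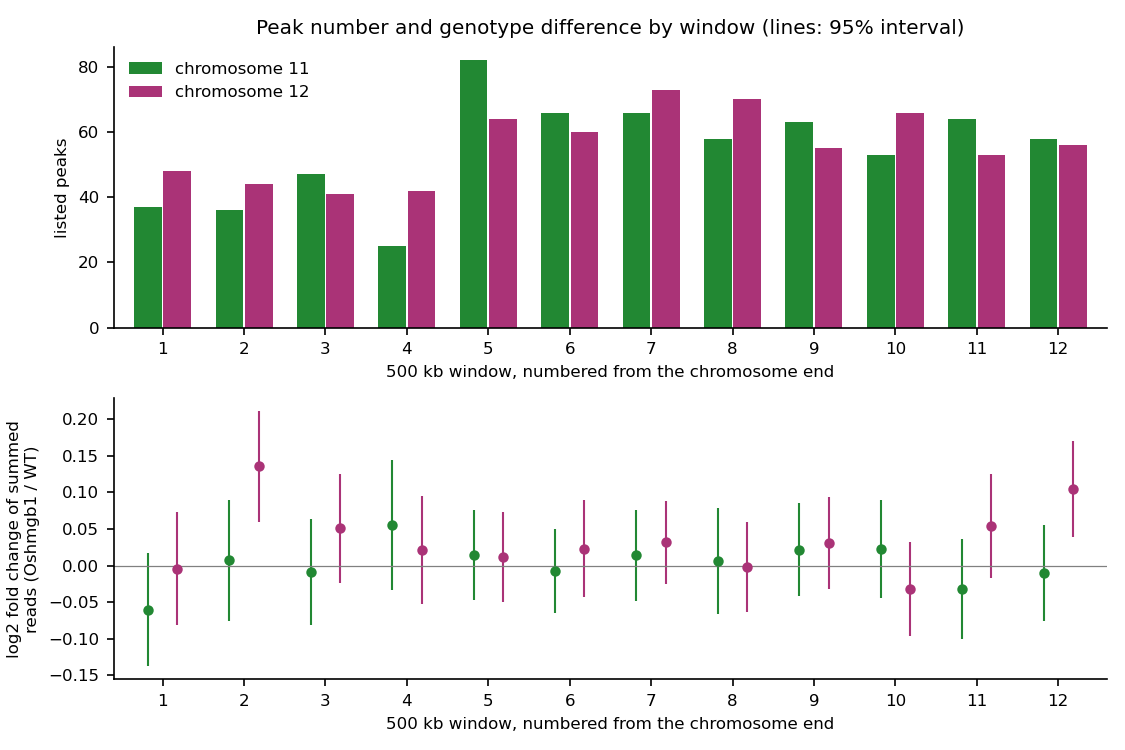
Listed peaks per 500 kb window (top, bars from 0) and log2 fold change of the summed reads of each window, Oshmgb1 over WT (bottom, points with 95% intervals), for windows numbered from the ends of chromosomes 11 (green) and 12 (purple). Windows 1 to 4 hold 25 to 48 peaks and windows 5 to 12 hold 53 to 82; window 2 of chromosome 12 lies highest, at 0.14.

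As whole segments, the chromosomes kept nearly the same share of reads. The ratio of reads in chromosome 11 peaks to reads in chromosome 12 peaks was 0.982 and 0.998 in WT and 0.975 and 0.965 in Oshmgb1. Both Oshmgb1 libraries had a ratio below both WT libraries. The log2 ratio was -0.01 ± 0.02 (SD, n = 2) in WT and -0.04 ± 0.01 (SD, n = 2) in Oshmgb1, a difference of -0.03. The two-sided exact permutation test gave p = 0.333, the smallest value that 2 libraries against 2 allow.

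To compare the copies gene by gene, genes of the chromosomes were paired where a symbol, or a description where there was no symbol, occurred at exactly 1 gene with listed peaks in each segment. There were 64 such pairs, and 57 lay in the same order on both chromosomes, 51 of them paired by symbol and 6 by description. Their positions differed by a median of 77.4 kb, and 24 pairs lay in the first 2 Mb, 19 from 2 to 3 Mb and 14 beyond. Such a pair shares its annotation and its order, but its sequence was not compared and its strand was not part of the rule. Reads and widths were summed over all listed peaks of a gene, so that levels per kb of peak could be compared within each library. The copies together held 95 peaks on chromosome 11 and 102 on chromosome 12, with more peaks at the chromosome 11 copy in 16 pairs, more at the chromosome 12 copy in 21 and equal numbers in 20.

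Per kb of peak, the copies of many pairs differed. The difference between copies was called in 27 of the 57 pairs (47.4%), 14 with the chromosome 11 copy higher and 13 with the chromosome 12 copy higher (edgeR on both copies and all 4 libraries, with library as a block and peak width as an offset). In total reads, with no width offset, 48 pairs were called, 20 with chromosome 11 higher and 28 with chromosome 12 higher, of which 24 were among the 27. The copies' peaks also differ in number and annotation class, so a ratio per kb compares the listed peaks of the copies and not matched sites. Higher copies were split evenly between the chromosomes, and the median log2 ratio of chromosome 11 over chromosome 12 was 0.06, with median levels of 27.4 and 25.6 CPM per kb. In 33 pairs the same copy was higher in all 4 libraries. The difference exceeded 2-fold in 2 pairs. Across the 57 pairs the levels of the copies had a Pearson r of 0.41 on the log2 scale and a Spearman rho of 0.46, a description across genes that share libraries.

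The pair of largest difference was fam135b, named after an animal FAM135B protein. Its copies are annotated on opposite strands, + on chromosome 11 and - on chromosome 12, and whether they are duplicates was not tested. Its chromosome 12 copy LOC_Os12g06800 had 1 promoter peak, with 81.7 and 94.3 CPM per kb in WT and 81.6 and 87.9 in Oshmgb1. The chromosome 11 copy LOC_Os11g06690 had 2 exon peaks and 1 intron peak, with 20.9 and 21.9 CPM per kb in WT and 20.8 and 21.1 in Oshmgb1. The chromosome 12 copy was 4.08-fold higher (log2 ratio of chromosome 11 over chromosome 12 -2.03 ± 0.08; edgeR adjusted p = 3.31e-46). The comparison sets a peak annotated as promoter against peaks annotated as exon and intron. No peak of the chromosome 11 copy is annotated as promoter, but its first peak begins at 3256379, before the gene start at 3256399.

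BLH1, a BEL1-like homeodomain transcription factor gene, showed the largest excess at the chromosome 11 copy. LOC_Os11g06020 had 66.0 and 70.8 CPM per kb in WT and 69.7 and 69.3 in Oshmgb1, whereas LOC_Os12g06340 had 24.3 and 21.9 in WT and 28.5 and 26.2 in Oshmgb1. The chromosome 11 copy was 2.74-fold higher (log2 ratio 1.46 ± 0.08; edgeR adjusted p = 2.54e-34), and the levels of the copies did not overlap. The chromosome 11 copy had a promoter peak of 81.6 CPM per kb, upstream of its 5 prime end at 2844518. The chromosome 12 copy had a 5 prime UTR peak of 22.3. The peak that covers the 5 prime end on chromosome 11, at 2844375 to 2845120 with 95.5 CPM per kb, is annotated to an intron of LOC_Os11g06030. It was not counted for BLH1, so these values do not compare the 5 prime ends. The neighbouring pair LHW, a bHLH transcription factor gene named for its role in Arabidopsis roots, had 42.0 ± 1.73 CPM per kb (SD, n = 4) at the chromosome 11 copy and 25.6 ± 2.29 at the chromosome 12 copy (log2 ratio 0.71 ± 0.08; edgeR adjusted p = 9.43e-14). This set 1 downstream peak on chromosome 11, at 2837121 to 2838385, against 3 peaks in the 3 prime UTR, an exon and the promoter on chromosome 12. The downstream peak also reaches into the BLH1 gene, which begins at 2837990.

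The DMC1 pair, listed under the symbol LIM15, had 1 promoter peak at each copy. The DMC1B peak (LOC_Os11g04954) had 38.9 and 43.6 CPM per kb in WT and 41.9 and 42.7 in Oshmgb1. The DMC1A peak (LOC_Os12g04980) had 19.4 and 20.7 in WT and 20.1 and 26.6 in Oshmgb1. The log2 ratio per kb was 0.96 ± 0.13 (edgeR adjusted p = 1.68e-10), with DMC1B higher. The order was the reverse in total reads, since the DMC1B peak was 451 bp wide and the DMC1A peak 1270 bp. Without a width offset the log2 ratio was -0.54, with 17.5 to 19.7 CPM at DMC1B and 24.7 to 33.8 CPM at DMC1A over the 4 libraries. Neither DMC1 peak was called between genotypes (edgeR adjusted p = 0.965 and 0.612).

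Other pairs split between the chromosomes. PCMP-H12, a pentatricopeptide repeat gene by its symbol, had 35.1 CPM per kb at its chromosome 11 copy and 18.6 at its chromosome 12 copy (log2 ratio 0.91 ± 0.15). CHUP1, which anchors chloroplasts to the cell membrane and positions them in the leaf, had 44.4 and 25.6 CPM per kb (0.79 ± 0.08). This set 1 promoter peak against 4 promoter and intron peaks. In promoter peaks alone CHUP1 had 44.4 and 34.6 CPM per kb (log2 ratio 0.36; edgeR adjusted p = 0.00602), and in total reads 56.1 and 55.3 CPM. ACT7, whose copies are annotated on opposite strands, had 35.0 and 22.2 CPM per kb (0.68 ± 0.11). Higher at chromosome 12 were ESRP2, with 24.1 and 42.9 CPM per kb (-0.83 ± 0.16), RPL26A, a ribosomal protein gene, with 30.3 and 50.3 (-0.73 ± 0.08), and ARAD1, an arabinosyltransferase gene of cell wall pectin, with 23.9 and 38.9 (-0.70 ± 0.10). IQM3, a calmodulin-binding protein gene, had 23.5 and 39.0 CPM per kb (-0.72 ± 0.08), and VATP-P1 had 28.2 and 40.6 (-0.52 ± 0.11). The IQM3 pair rests on its symbol only, since the deposited table describes the chromosome 11 gene as FAR1-RELATED SEQUENCE 5-like. With all listed peaks, the copies of each pair named here passed the test per kb at an edgeR adjusted p of 3.96e-05 or less. For DMC1, PCMP-H12, LHW, IQM3, RPL26A and ARAD1 the copy with the higher level per kb had fewer reads in total, so that the order of the copies turns when width is not taken into account.

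Promoter peaks alone could be compared in the 25 pairs where both copies had one, a comparison chosen after the data had been seen. The copies differed in 14 of them (56.0%), 6 with chromosome 11 higher and 8 with chromosome 12 higher. With all peaks, 13 of these 25 pairs had been called, and 12 were called both ways with the same copy higher. VIP1 had 108.8 CPM per kb at its chromosome 11 promoter and 65.2 at its chromosome 12 promoter. IQM3 had 16.6 and 48.7, and HVA22J, a gene of the stress-inducible HVA22 family, had 27.3 and 39.3.

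**Figure D4:**
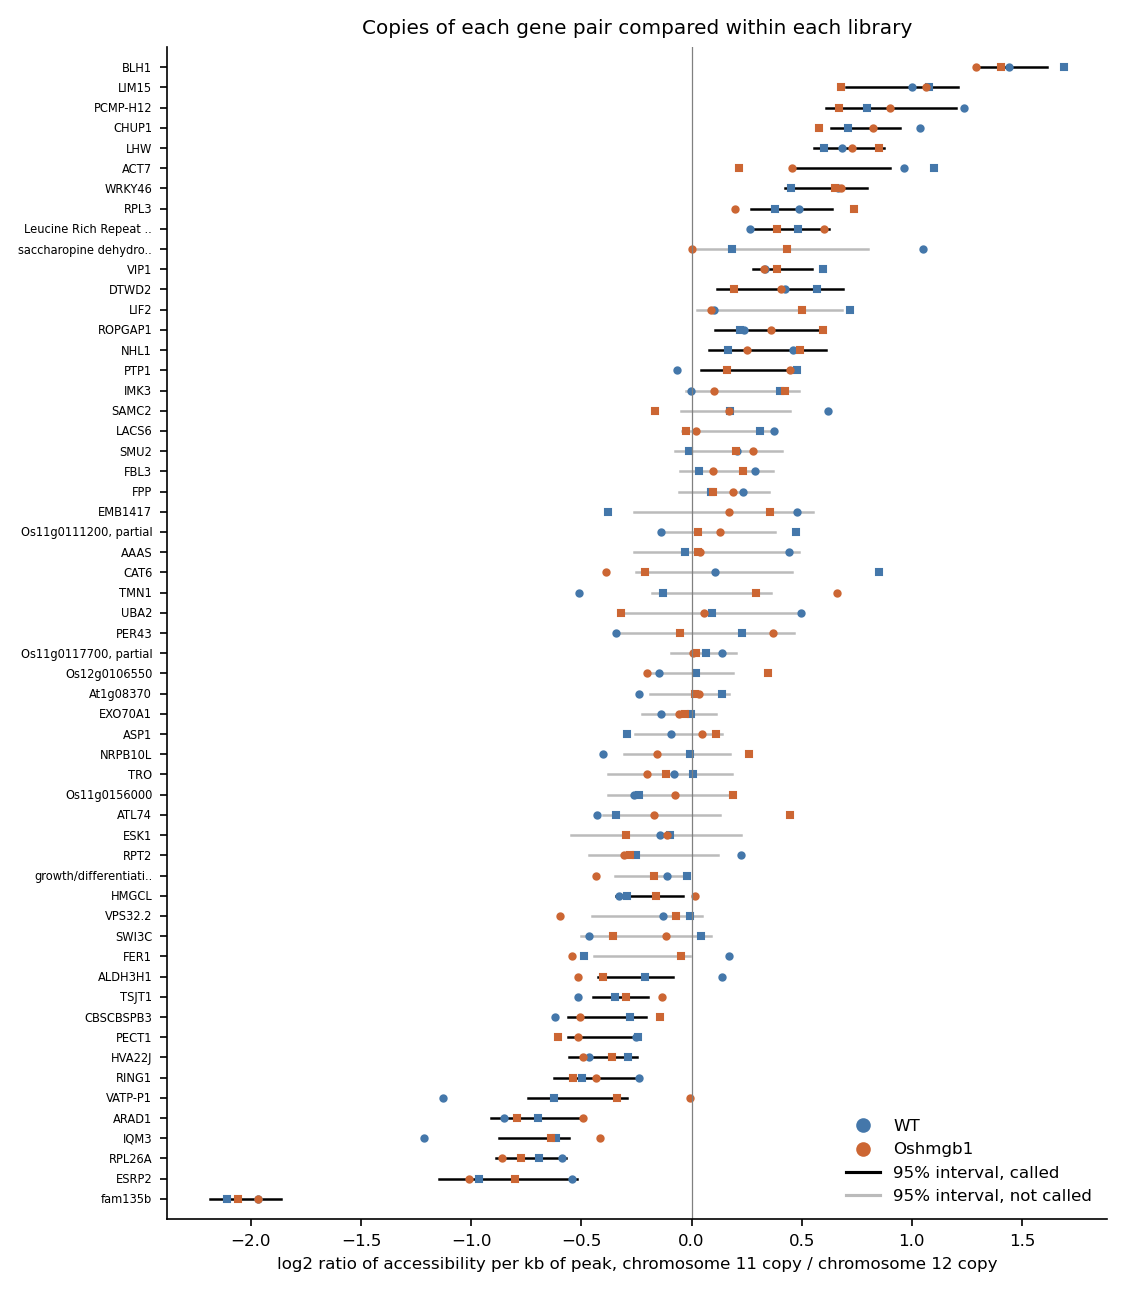
Log2 ratio of accessibility per kb of peak, chromosome 11 copy over chromosome 12 copy (x axis), for the 57 gene pairs (rows, ordered by the ratio). Points are the 4 libraries (blue WT, orange Oshmgb1; circles replicate 1, squares replicate 2) and lines the 95% interval of the fitted difference between copies, black where called. The intervals of 27 pairs are black, and fam135b (-2.03) and BLH1 (1.46) lie farthest from 0.

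The mutation was not found to change the balance between copies. The term for copy by genotype, which tests whether the genotype difference at one copy differs from that at the other, was called in 0 of 57 pairs (0.0%) by edgeR and in 0 by DESeq2, with 6 (10.5%) and 4 at an unadjusted p under 0.05. Its 95% interval excluded a 2-fold shift in 48 of the 57 pairs. By limma on the log2 ratios of copies 4 pairs were called, at ACT7, VATP-P1, TMN1 and CAT6.

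The term is given as chromosome 11 minus chromosome 12. ACT7 had 38.7 and 35.6 CPM per kb in WT and 32.4 and 33.2 in Oshmgb1 at the chromosome 11 copy, and 19.8 and 16.6 in WT and 23.7 and 28.6 in Oshmgb1 at the chromosome 12 copy. The chromosome 11 copy was lower and the chromosome 12 copy higher in both Oshmgb1 libraries than in both WT libraries, with a copy by genotype term of -0.70 ± 0.22 (edgeR adjusted p = 0.0762; limma adjusted p = 0.0409). VATP-P1 lay the other way. It had 22.6 and 26.9 CPM per kb in WT and 32.3 and 31.0 in Oshmgb1 at the chromosome 11 copy, and 49.5 and 41.4 in WT and 32.5 and 39.2 in Oshmgb1 at the chromosome 12 copy (0.70 ± 0.23; edgeR adjusted p = 0.0762; limma adjusted p = 0.0409). The excess of the chromosome 12 copy of VATP-P1 was near 0 in Oshmgb1 replicate 1, at a log2 ratio of -0.01, and reached -1.13 in WT replicate 1.

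TMN1 was the pair with a called peak. Its chromosome 11 copy had 16.6 and 20.1 CPM per kb in WT and 31.0 and 24.5 in Oshmgb1, and its chromosome 12 copy had 23.7 and 22.0 in WT and 19.6 and 19.98 in Oshmgb1. The copy by genotype term was 0.80 ± 0.27 (edgeR adjusted p = 0.0800; limma adjusted p = 0.0270). At the chromosome 11 copy it sums the called intron peak with another intron peak that was not called (log2 fold change 0.37). The called peak alone was not compared with the chromosome 12 copy. CAT6, an amino acid transporter gene, had a term of -0.81 ± 0.35 (edgeR adjusted p = 0.232; limma adjusted p = 0.0270). ALDH3H1 had -0.42 ± 0.17 and IQM3 0.38 ± 0.16, both with an edgeR adjusted p of 0.215. Across the 57 pairs the log2 fold change of one copy had a Pearson r of -0.13 and a Spearman rho of -0.05 with that of the other, a description across genes.

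**Figure D5:**
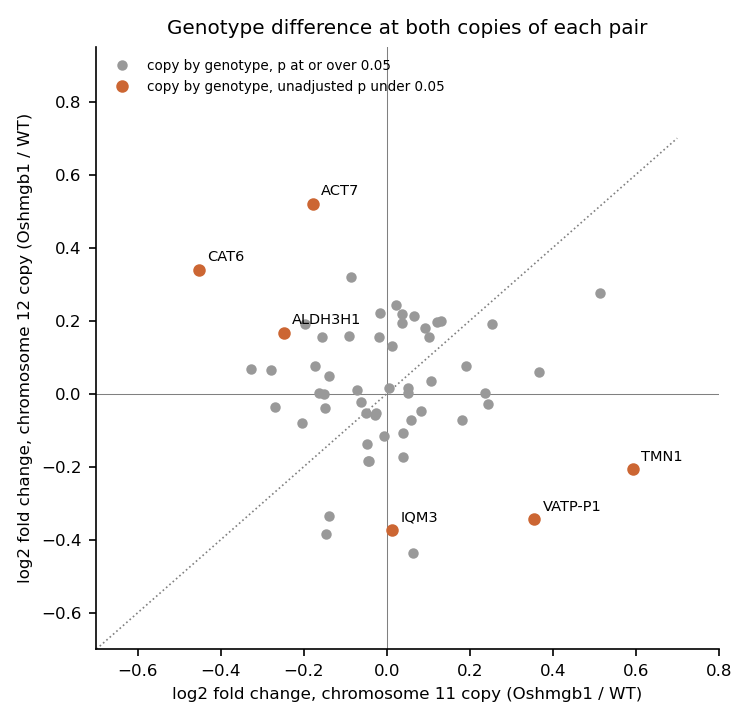
Log2 fold change of Oshmgb1 over WT at the chromosome 11 copy (x axis) and at the chromosome 12 copy (y axis) of the 57 gene pairs; the dotted line marks equal values. Orange points are the 6 pairs with an unadjusted copy by genotype p under 0.05, none of which passed adjustment by edgeR.

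The called genes of chromosome 12 other than LOC_Os12g08040 and LOC_Os12g10820 lay between close pairs, so the corresponding interval of chromosome 11 could be examined. Between the pairs on either side of LOC_Os12g01955, 117.7 kb apart on chromosome 12 and 120.1 kb apart on chromosome 11, chromosome 11 had 7 listed peaks with log2 fold changes of -0.07 to 0.49, none called. The interval that holds ATL32 and LOC_Os12g02240 had 8 listed peaks on chromosome 11 with log2 fold changes of -0.33 to 0.11, none called. The interval around LOC_Os12g06464 had 7 listed peaks on chromosome 11, at -0.23 to 0.60, none called. Around LOC_Os12g07180 the interval spanned 10.4 kb on chromosome 12 with 2 listed peaks and 24.0 kb on chromosome 11 with 0 listed peaks. At an unadjusted p under 0.05 there was 1 peak opposite LOC_Os12g01955, 0 opposite ATL32 and LOC_Os12g02240 and 1 opposite LOC_Os12g06464. With 0.403% of all listed peaks called, intervals of 7 or 8 peaks without a call are not a result about them. The intervals around the called TMN1 intron peak were unlike in size, 209.9 kb with 33 listed peaks on chromosome 11 and 82.8 kb on chromosome 12. The chromosome 12 interval had 7 listed peaks at -0.51 to 0.13, none called and 2 at an unadjusted p under 0.05.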

How the data were processed

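ATAC-seq of rice leaf blades gave 4 libraries. The submitters' processing notes name Bowtie2 2.4.4, an aligner, MACS2 2.1.2, a peak caller, ChIPseeker 1.16.1, fastp 0.23.0 and bcl2fastq 2.19. The sources used here give no settings, no genome build and no treatment of duplicate reads or of reads that align to several places. The authors deposited a whole-number read count per merged peak and library, tested as it stands. The RPKM deposited by the authors gave alternative library totals (median over peaks with at least 300 reads). The authors' deposited p-value and FDR, and the log2 fold change beside them, served only as an alternative set of calls.

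Counts were fitted with edgeR 4.0.16 under R 4.3.3 (scaling by TMM, quasi-likelihood test, Oshmgb1 against WT, no covariate), over all 46114 peaks and over 755 windows. Intervals are 95% and cover only the spread among these libraries, possibly a technical one. CPM are reads scaled to 1000000 TMM-adjusted reads in listed peaks. Pairs were fitted with copy, library and copy by genotype terms and an offset for peak width. Genes were named by rule: called peaks, the 5 lowest p per direction and segment, the 5 highest levels, the largest copy differences, the DMC1 pair and family members. For families, counts are given in place of examples. Alternatives were DESeq2 1.42.0, limma 3.58.1 (pseudocount 0.5), other scalings, filters, windows, segment ends and left-out libraries. Only the edgeR fits of peaks (without the filter) and of pairs (with an assumed spread) were tried on simulated data. The window fit and the alternatives were not. The replicate numbers pair no libraries by the labels. The members, pairs and lists were chosen with earlier results of these data known. Python 3.11.15 with matplotlib 3.10.9 made the figures.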

Additional observations from a re-analysis of the deposited data

How the results depend on the processing

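The 9 called peaks became 5 by DESeq2 and 5 by the FDR of the authors' deposited table, 3 with segments of 3 Mb (fewer peaks), and 5 to 25 with a library left out. Scaling by the RPKM totals gave 12 (8 higher, 4 lower). The called window (1 in all) became 0 with the replicate block and 0 with 1 Mb windows, and 0 to 1 with a library left out; with the RPKM totals the 1 called window was another one, lower in Oshmgb1. The 27 pairs called between copies became 48 with no width offset, of which 24 were shared, and 14 with promoter peaks only (25 pairs could be fitted). The log2 ratio then turned, with no width offset, to 0.22 for IQM3, -0.54 for DMC1, -0.40 for PCMP-H12, -0.027 for LHW, 0.73 for RPL26A and 0.30 for ARAD1, by the construction of that setting. Copy by genotype calls rose from 0 to 4 by limma and ranged from 0 to 1 with a library left out (IQM3, without WT replicate 2). The replicate block gave 9 peaks, 18 pairs between copies, 0 copy by genotype calls and an exact permutation p = 0.5 for the read ratio; libraries that share a number had deviations with a correlation of -0.04 over all peaks. The read ratio difference ranged from -0.04 to -0.02 with a library left out. The identity-based pair rule was not run, because no sequence was used. Where a cause is not given, it was not tested. A genotype left with 1 library was taken to have the same spread as the other genotype.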
